A study of Mus musculus with 9 samples.

Results

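The genes described here are those of the tumor necrosis factor (TNF), interleukin-1 (IL-1) and NF-kB system: Tnf, Il1a and Il1b for the cytokines, Tnfrsf1a and Tnfrsf1b for the TNF receptors, Tradd for the receptor adaptor, Rela and Nfkb1 for NF-kB subunits, and Nfkbia and Tnfaip3 for inhibitors. They were chosen by name as 10 genes of the pathway, with earlier results of these data known. Of these, 9 were measured, each by 1 of the 22206 transcripts on the array, and no transcript carried the symbol Nfkb1, which was not analysed here. Values are log2 signals, 1 per transcript and array, so that a difference of 1 between arrays is a doubling. The arrays were 9 of the Clariom S Mouse type, in 3 groups of 3. SAMR1 water were senescence-accelerated resistant mice given water, SAMP8 water were senescence-accelerated prone mice given water, and SAMP8 TFQA were SAMP8 mice given 3,4,5-tri-feruloylquinic acid (TFQA, 1 mg/kg once a day for 37 days by oral gavage). All were male and 6 months old by the methods, which do not give the age at the end of the 37 days. SAMP8 is an inbred model of early aging with learning deficits and SAMR1 its normally aging control, so that the strains differ in genetic background as well as in aging. The methods name the tissue as hippocampus and the labels name brain and neural stem cells. The labels do not say whether the arrays of a group came from separate mice, and the p-values then cover only the spread among these arrays, which may be technical.

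TNF and both forms of interleukin-1, alpha and beta, are cytokines that microglia release in the brain. TNF binds TNFR1 (Tnfrsf1a), which recruits the adaptor TRADD through its death domain, or TNFR2 (Tnfrsf1b), which has no death domain. Either cytokine family activates the IkB kinases, which mark IkB-alpha (Nfkbia) for degradation and release NF-kB, a dimer such as p65 (Rela) with p50 (made from the Nfkb1 product), to the nucleus. Nfkbia and Tnfaip3, which encodes the ubiquitin-editing enzyme A20, are textbook NF-kB target genes that shut the response down, so their RNA is often read as a measure of pathway activity.

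The study's threshold joins a fold change above 1.1 with an unadjusted p below 0.05. The promoters of the genes past it in a comparison with SAMP8 water, and of Nfkbia as the other inhibitor, are shown because the system feeds back on its own transcription. Sequences are from RefSeq on GRCm38.p6, from 250 bases before to 50 after a start site, in the direction of the gene. Capitals mark exact matches on either strand to the NF-kB consensus decamer or to TATAAA. The decamer was searched as GGGRNNYYCC (R for A or G, Y for C or T, N for any base). Sites that only resemble this pattern stay in lower case. The promoters lie at chr17:35201958-35202257 (minus strand, Tnf), chr2:129309923-129310222 (minus strand, Il1a), chr10:19015361-19015660 (minus strand, Tnfaip3) and chr12:55492598-55492897 (minus strand, Nfkbia).
Tnf: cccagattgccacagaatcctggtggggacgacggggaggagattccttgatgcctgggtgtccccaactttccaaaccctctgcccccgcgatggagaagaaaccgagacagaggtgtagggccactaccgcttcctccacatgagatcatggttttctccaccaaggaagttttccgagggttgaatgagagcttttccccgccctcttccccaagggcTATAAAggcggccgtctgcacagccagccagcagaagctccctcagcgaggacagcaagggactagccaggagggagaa
Il1a: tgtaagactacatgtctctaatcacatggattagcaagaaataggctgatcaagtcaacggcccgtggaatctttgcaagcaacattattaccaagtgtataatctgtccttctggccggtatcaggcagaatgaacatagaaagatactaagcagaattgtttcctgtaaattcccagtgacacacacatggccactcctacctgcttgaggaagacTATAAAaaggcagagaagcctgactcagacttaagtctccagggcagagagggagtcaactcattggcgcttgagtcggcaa
Tnfaip3: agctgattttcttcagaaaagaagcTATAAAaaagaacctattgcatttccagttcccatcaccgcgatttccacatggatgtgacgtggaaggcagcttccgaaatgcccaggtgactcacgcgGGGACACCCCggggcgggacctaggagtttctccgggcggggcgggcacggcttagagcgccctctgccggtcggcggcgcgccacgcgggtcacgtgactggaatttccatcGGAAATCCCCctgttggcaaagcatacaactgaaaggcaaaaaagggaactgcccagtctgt
Nfkbia: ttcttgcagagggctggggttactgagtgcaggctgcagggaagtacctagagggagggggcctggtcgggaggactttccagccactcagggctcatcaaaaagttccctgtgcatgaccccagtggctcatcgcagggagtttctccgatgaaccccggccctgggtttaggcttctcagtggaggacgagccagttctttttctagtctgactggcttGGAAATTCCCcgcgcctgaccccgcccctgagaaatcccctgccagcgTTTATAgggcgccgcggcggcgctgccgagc
The cytokine promoters held TATAAA just before the start site, at bases -29 to -24 in Tnf, -32 to -27 in Il1a and -31 to -26 in Il1b. The decamer stood in a promoter of each inhibitor. In Tnfaip3 it was GGGACACCCC at -125 to -116 and GGAAATCCCC at -12 to -3, and TATAAA lay at -225 to -220. In Nfkbia it was GGAAATTCCC at -29 to -20, with TTTATA, the reverse complement of TATAAA, at 20 to 25. Of the 10 genes, 8 had an entry, Tnfaip3 with 2 start sites. The other Tnfaip3 promoter, at chr10:19011914-19012213, held neither the decamer nor TATAAA and is not shown. Tradd and Nfkb1 had none. The decamer was in 2 of the 8 (25%) and in 2779 of the 32851 promoters of the table (8.46%), and TATAAA was in 5 of the 8 (62.5%) and in 4473 of all (13.6%). Counted by gene, the table's shares were 9.55% and 15.7%. The motifs do not overlap each other in these windows, and a match is a description of the letters only.

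The tissue was checked with marker lists. Over the 9 arrays, the 9 neuronal markers read 10.37 to 18.22, the 5 oligodendrocyte markers 7.81 to 18.06, the 7 hippocampal markers 5.41 to 15.06 and the 7 neural stem cell markers 3.47 to 10.54. Levels of different transcripts are not comparable, so that these ranges do not settle the tissue. SAMP8 TFQA replicate 2 stood apart in striatal markers. Its striatal score, the mean deviation of 7 markers from their 9-array means, was 3.58, and the other arrays lay between -0.94 and 0.78. Its hippocampal score was the lowest, at -0.63 against -0.15 to 0.51 in the others. All 7 hippocampal markers had lower means after TFQA than in SAMP8 water, with a median difference of -0.49. Of them, 1 was past the study's threshold (14.3%, against 7.12% of all transcripts). The 7 choroid plexus markers all had higher means in SAMP8 water than in SAMR1 water. Of them, 5 were past the study's threshold (71.4%, against 6.09% of all transcripts). All had lower means after TFQA than in SAMP8 water, 2 past it (28.6%, against 7.12%). Of the 8 meningeal fibroblast markers, 6 were past it in each comparison with SAMR1 water (75%, against 6.09% and 8.06%). After TFQA, against SAMP8 water, 1 of the 8 was past it (12.5%). The part of these shifts in the results was not tested. The score of 14 microglial markers was -0.15 to -0.04 in SAMR1 water, -0.04 to 0.04 in SAMP8 water and 0.04 to 0.16 in SAMP8 TFQA. The score of 6 perivascular macrophage markers was -0.35 to -0.22, -0.03 to 0.02 and -0.01 to 0.47 in the same order. Of the 14 microglial markers, 0 were past the study's threshold in either comparison with SAMP8 water. In SAMP8 TFQA vs. SAMR1 water 3 were past it (21.4%, against 8.06% of all transcripts), and 0 passed the adjusted test in any comparison. Over all marker lists 2 genes passed the adjusted test, both in SAMP8 TFQA vs. SAMR1 water and both named after their values were seen. Mrc1, the mannose receptor of perivascular macrophages, rose by 1.39 (adjusted p = 0.0494 in limma), and Slc22a6, an organic anion transporter on the meningeal list, rose by 1.42 (adjusted p = 0.0275). The lowest value among the 14 microglial markers was the 5.35 of Tmem119, and the lowest value of the table was 2.06. In bulk tissue, fewer cells of a type and less RNA per cell cannot be told apart.

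**Figure D1:**
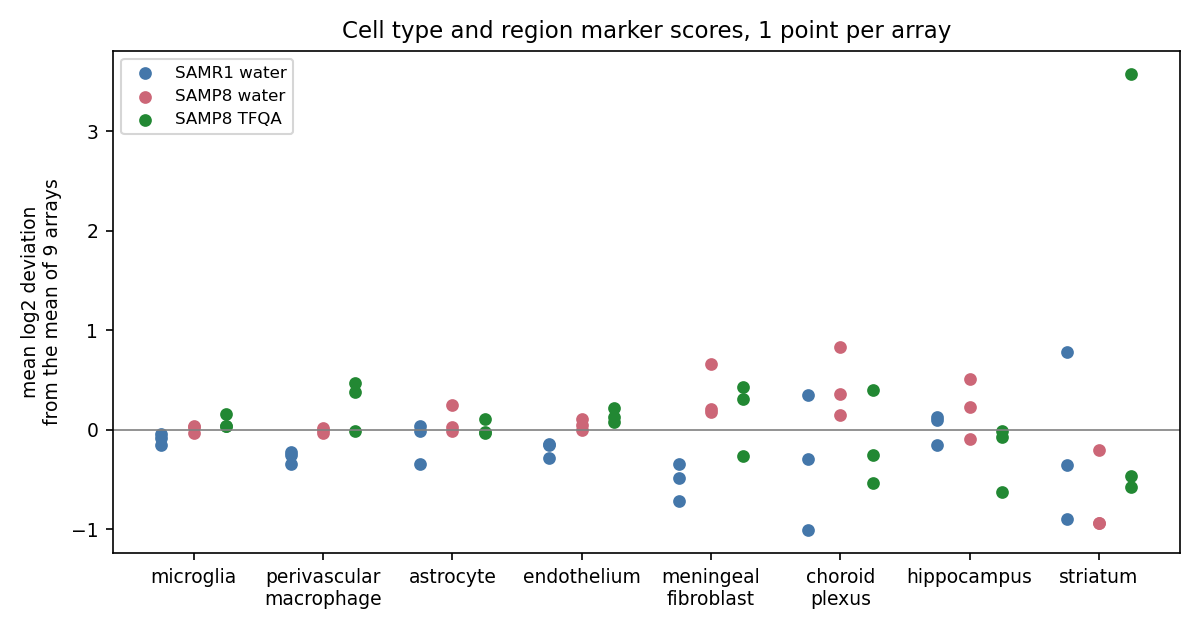
Mean log2 deviation from the mean of the 9 arrays (vertical axis) for lists of cell type and region markers (horizontal axis), 1 point per array, coloured by group. The microglial scores lie within -0.15 to 0.16, and the striatal score of SAMP8 TFQA replicate 2 is 3.58.

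Over the 9 genes, no difference between groups passed the adjusted test. None reached a Benjamini-Hochberg adjusted p under 0.05 in limma in any of the 3 comparisons. Of all transcripts, 0.509% did so in SAMP8 water vs. SAMR1 water and 0% after TFQA against SAMP8 water. In SAMP8 TFQA vs. SAMR1 water 0.576% did so. Behind the 0% stand 1580 transcripts at an unadjusted p under 0.05 in limma, and one-way testing with unmoderated variances called 0 as well. In an F-test over the 3 groups, 0.522% of all transcripts and none of the 9 passed, and the lowest adjusted p was that of Tnfaip3 (0.274). Past the study's threshold were 1 of 9 (11.1%) in SAMP8 water vs. SAMR1 water, 2 of 9 (22.2%) in SAMP8 TFQA vs. SAMP8 water and 2 of 9 (22.2%) in SAMP8 TFQA vs. SAMR1 water. Over all transcripts the shares were 6.09%, 7.12% and 8.06%. Groups were free of overlap in 1, 2 and 4 of the 9 genes, against 11.8%, 11.8% and 12.3% of all transcripts. With 9 genes, 1 call alone makes 11.1%. The comparisons share their groups, so that they are not independent of each other. SAMP8 TFQA and SAMR1 water differ in both strain and treatment, so that this comparison cannot tell strain from treatment.

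**Figure D2:**
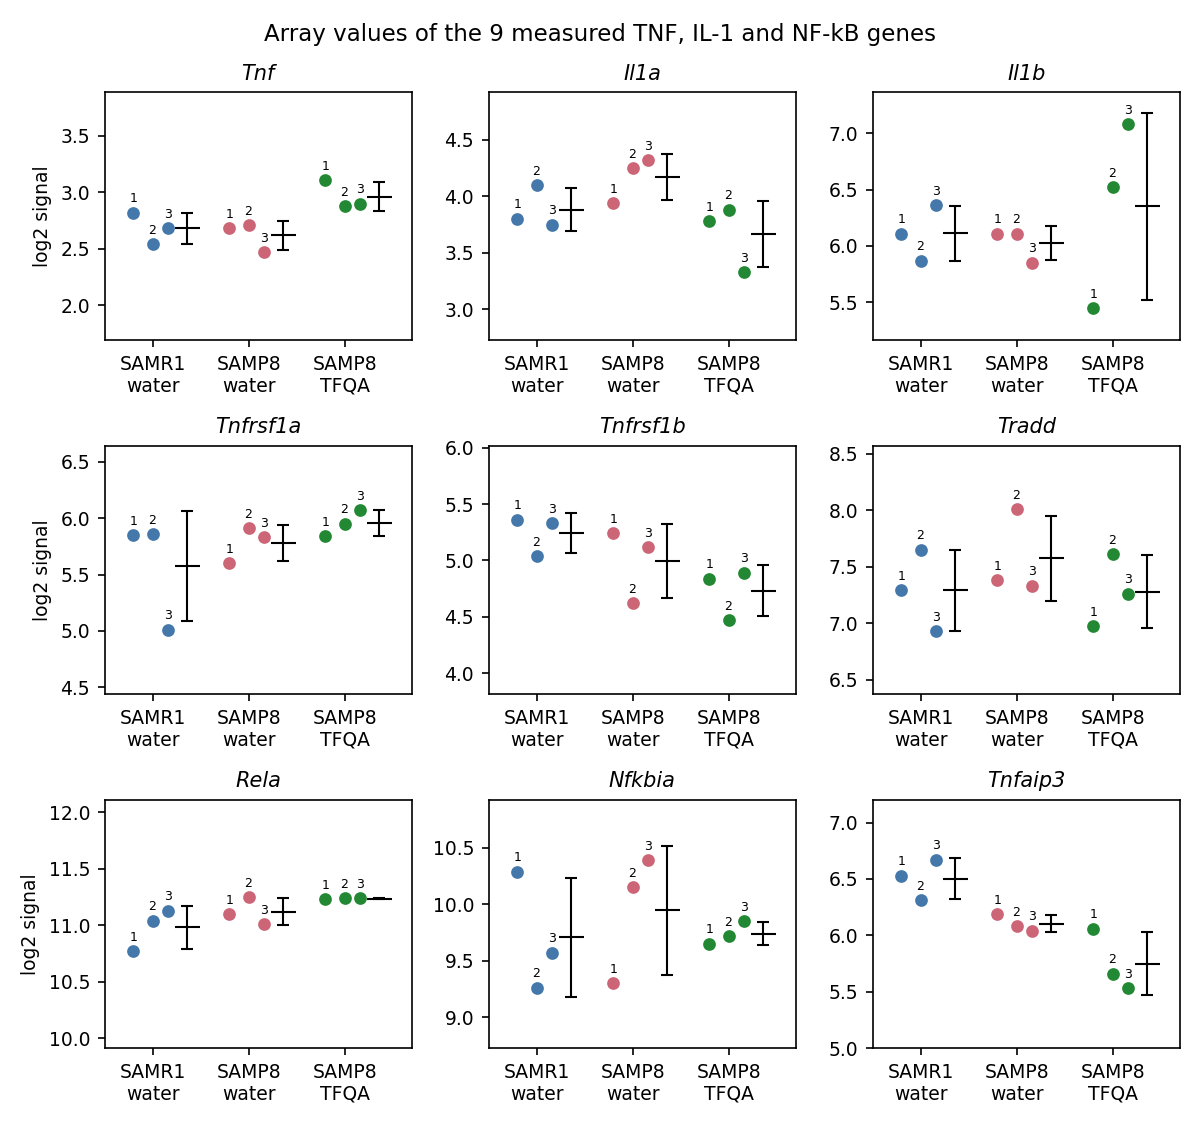
Log2 signal (vertical axis, a span of 2.2 units in every panel) of the 9 measured genes in the 3 groups (horizontal axis). Points are single arrays with their replicate number, and the bar and whiskers beside them are the group mean and SD (n = 3). In Tnfaip3 the 3 SAMR1 water arrays lie at 6.31 to 6.67, above all SAMP8 arrays, and in Il1b the SAMP8 TFQA arrays spread from 5.45 to 7.08.

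Tnf, the cytokine also chosen for qPCR, lay near the low end of the scale of the array. In SAMR1 water Tnf (chromosome 17, 35199367 to 35202007) was 2.82, 2.54 and 2.68. In SAMP8 water it was 2.68, 2.71 and 2.47, and in SAMP8 TFQA it was 3.11, 2.88 and 2.90. All 3 TFQA arrays thus lay above the 6 water arrays, while the 2 water groups overlapped. SAMP8 TFQA was higher than SAMP8 water by 0.34 on the log2 scale (standard error 0.15), a fold of 1.27 with a 95% interval of 1.01 to 1.60, at an unadjusted p = 0.0453 and an adjusted p = 0.685 in limma. Between SAMP8 water and SAMR1 water the log2 difference was -0.06 (95% interval -0.39 to 0.27, adjusted p = 0.988 in limma), which leaves room for a fold between 0.761 and 1.21. Between SAMP8 TFQA and SAMR1 water it was 0.28 (95% interval -0.05 to 0.62, adjusted p = 0.679 in limma).

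Of all transcripts, 73 (0.329%) had a lower mean than Tnf. The files used here hold no detection call, so that these arrays do not settle whether Tnf was above background. The call of Tnf also depended on single arrays. The call was lost, with a difference of 0.27 each time, without SAMP8 water replicate 3 (adjusted p = 0.822 in limma) and without SAMP8 TFQA replicate 1 (adjusted p = 0.766). It was also lost, with differences of 0.34, 0.37, 0.39 and 0.38, without SAMR1 water replicate 3, SAMP8 water replicate 1, SAMP8 water replicate 2 and SAMP8 TFQA replicate 3. Without SAMP8 TFQA replicate 2, the array with the striatal markers, the difference was 0.38 and narrowly past the threshold (adjusted p = 0.670 in limma). In an exact two-sided permutation test of 3 arrays against 3 the p was 0.1, the smallest this design allows. The microglial scores of replicates 1, 2 and 3 were 0.04, 0.04 and 0.16 in SAMP8 TFQA and 0.04, -0.04 and 0.03 in SAMP8 water. The part of microglial RNA in the group difference was not tested.

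The qPCR of the study measured Tnf relative to Gapdh, a glycolytic enzyme used as reference, and its values are not among the files used here. The closest array measure is the Tnf value minus the Gapdh value of the same array. Gapdh read 17.81, 17.71 and 17.70 in SAMR1 water, 17.70 in each of the 3 SAMP8 water arrays, and 17.51, 17.70 and 17.85 in SAMP8 TFQA. Its log2 differences between groups were -0.04, -0.01 and -0.05 (adjusted p of 0.991, 0.992 and 0.959 in limma). Relative to Gapdh, a choice made after seeing the data, Tnf differed by 0.36 in SAMP8 TFQA vs. SAMP8 water (standard error 0.18, unadjusted p = 0.0752 in limma), a fold of 1.28. The difference was 0.34 in SAMP8 TFQA vs. SAMR1 water and -0.02 in SAMP8 water vs. SAMR1 water. The TFQA arrays again did not overlap either water group (exact permutation p = 0.1 for both), but the call at the study's threshold was lost.

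Over the 9 arrays, the genes whose values most resembled those of Tnf were Zfp799, a zinc finger gene, Kif3b, a kinesin motor subunit, and Ubap1l. Their Pearson correlations with Tnf were 0.955, 0.942 and 0.927, and the Spearman correlations were 0.979, 0.941 and 0.887. These are the 3 highest of 19504 genes over only 9 arrays, and 8 genes exceeded 0.9. All points share the normalization and the 3 groups.

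Il1a, which encodes interleukin-1 alpha, a cytokine held in cells and released on damage, was lower in SAMP8 TFQA than in SAMP8 water. Il1a (chromosome 2, 129299609 to 129310186) read 3.80, 4.10 and 3.75 in SAMR1 water, 3.94, 4.25 and 4.32 in SAMP8 water and 3.78, 3.88 and 3.33 in SAMP8 TFQA. The SAMP8 groups did not overlap, and SAMR1 water lay across both. Il1a, like Tnf, Tnfrsf1a and Tnfrsf1b, was among the 40% of transcripts with the lowest means, and no detection call was at hand. The difference in SAMP8 TFQA vs. SAMP8 water was -0.51 (standard error 0.19), a fold of 0.704 with a 95% interval of 0.529 to 0.937 (unadjusted p = 0.0202, adjusted p = 0.612 in limma). The other comparisons gave 0.29 for SAMP8 water vs. SAMR1 water (adjusted p = 0.919 in limma) and -0.22 for SAMP8 TFQA vs. SAMR1 water (adjusted p = 0.817). The call rested on single arrays. It was lost without SAMP8 water replicate 2 (-0.47, adjusted p = 0.786 in limma), SAMP8 water replicate 3 (-0.43, adjusted p = 0.753) or SAMP8 TFQA replicate 3 (-0.34, adjusted p = 0.658), and was kept without SAMP8 TFQA replicate 2 (-0.62, adjusted p = 0.572).

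Il1b, which encodes interleukin-1 beta, the form cleaved by caspase-1, had the widest spread of the cytokines and lies beside Il1a on chromosome 2 (129364569 to 129371164). It read 6.11, 5.87 and 6.36 in SAMR1 water and 6.11, 6.11 and 5.85 in SAMP8 water. In SAMP8 TFQA it read 5.45, 6.52 and 7.08. The TFQA arrays therefore held both the lowest and the highest value of the 9, with an SD of 0.83 against 0.25 in SAMR1 water and 0.15 in SAMP8 water. The group difference in SAMP8 TFQA vs. SAMP8 water was 0.33 with a 95% interval of -0.37 to 1.03 (adjusted p = 0.853 in limma), a fold between 0.772 and 2.04. SAMP8 TFQA replicate 1 decided this value. Without it the difference was 0.78 (adjusted p = 0.530 in limma), and 0.69 in SAMP8 TFQA vs. SAMR1 water (adjusted p = 0.405), both past the study's threshold. Without SAMP8 TFQA replicate 3 the values turned to -0.04 and -0.13. Across the 3 TFQA arrays, Tnf was highest in replicate 1, Il1a in replicate 2 and Il1b in replicate 3.

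Of the TNF receptors, Tnfrsf1b was past the threshold in 1 comparison and Tnfrsf1a in 0. Tnfrsf1a (TNFR1, chromosome 6, 125349723 to 125362483) read 5.85, 5.86 and 5.01 in SAMR1 water, 5.60, 5.91 and 5.83 in SAMP8 water and 5.84, 5.95 and 6.07 in SAMP8 TFQA. Apart from the 5.01 of SAMR1 water replicate 3, the arrays lay within 5.60 to 6.07. The differences were 0.21 for SAMP8 water vs. SAMR1 water, 0.17 for SAMP8 TFQA vs. SAMP8 water and 0.38 for SAMP8 TFQA vs. SAMR1 water, with adjusted p of 0.967, 0.888 and 0.699 in limma. Without SAMR1 water replicate 3 those against SAMR1 water were -0.08 and 0.10.

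Tnfrsf1b (TNFR2, chromosome 4, 145212368 to 145246870), a receptor found on microglia and other immune cells, read lower in SAMP8 TFQA than in SAMR1 water. It read 5.36, 5.04 and 5.33 in SAMR1 water, 5.24, 4.62 and 5.12 in SAMP8 water and 4.84, 4.47 and 4.89 in SAMP8 TFQA. The SAMP8 water arrays overlapped both other groups, which did not overlap each other. Replicate 2 was the lowest array of each group. SAMP8 TFQA vs. SAMR1 water gave -0.51 (standard error 0.20), a fold of 0.702 with a 95% interval of 0.521 to 0.947 (unadjusted p = 0.0241, adjusted p = 0.542 in limma). With the replicate number as a block, SAMP8 TFQA vs. SAMR1 water had an unadjusted p = 0.00672 and an adjusted p = 0.327 in limma. SAMP8 water vs. SAMR1 water gave -0.25 and SAMP8 TFQA vs. SAMP8 water gave -0.26, neither past the threshold. The following alternatives are again for SAMP8 TFQA vs. SAMR1 water unless stated. The call was lost without SAMP8 TFQA replicate 2 (-0.38, adjusted p = 0.668 in limma), SAMR1 water replicate 1 (-0.45, adjusted p = 0.722) or SAMR1 water replicate 3 (-0.47, adjusted p = 0.711). Without SAMP8 water replicate 2, the difference in SAMP8 TFQA vs. SAMP8 water was -0.45 and past the threshold (adjusted p = 0.760 in limma).

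**Figure D3:**
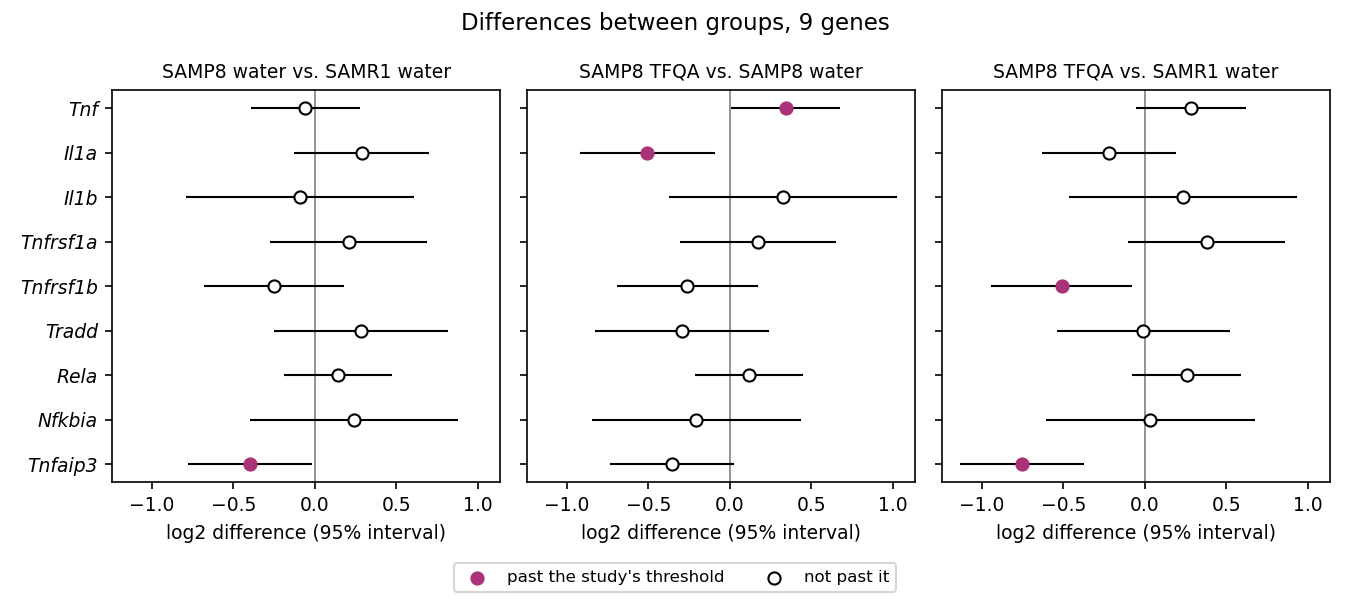
Log2 difference between groups (horizontal axis, with 95% intervals from limma as lines) for the 9 measured genes (vertical axis), 1 panel per comparison. Filled points are past the study's threshold. Tnfaip3 lies at -0.40, -0.35 and -0.75 in the 3 panels, and Tnf at 0.34 in the middle panel.

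Tradd and Rela, the adaptor and the p65 subunit, were past the threshold in 0 of the 3 comparisons. Tradd (chromosome 8, 105258575 to 105264594) read 7.29, 7.65 and 6.93 in SAMR1 water, 7.38, 8.01 and 7.33 in SAMP8 water and 6.97, 7.61 and 7.26 in SAMP8 TFQA. All groups overlapped, and replicate 2 was the highest of each. The differences were 0.28, -0.29 and -0.01, with adjusted p of 0.953, 0.823 and 0.997 in limma, and the last turned to 0.04 relative to Gapdh.

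Rela (chromosome 19, 5637442 to 5648134) read 10.77, 11.04 and 11.13 in SAMR1 water, 11.10, 11.25 and 11.01 in SAMP8 water and 11.23, 11.24 and 11.24 in SAMP8 TFQA. The TFQA arrays were nearly equal, with an SD of 0.0058, and lay above all SAMR1 water arrays. The difference was 0.26 in SAMP8 TFQA vs. SAMR1 water (95% interval -0.08 to 0.59, adjusted p = 0.704 in limma), 0.14 in SAMP8 water vs. SAMR1 water and 0.12 in SAMP8 TFQA vs. SAMP8 water. Among the other subunits listed, Rel and Relb, named here after their values were seen, gave -0.33 and -0.41 in SAMP8 TFQA vs. SAMP8 water (unadjusted p = 0.058 and 0.0568, adjusted p = 0.706 and 0.704 in limma), and Nfkb2 gave -0.06.

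Nfkbia (IkB-alpha, chromosome 12, 55489409 to 55492647) read 10.29, 9.26 and 9.57 in SAMR1 water, 9.30, 10.15 and 10.39 in SAMP8 water and 9.65, 9.72 and 9.85 in SAMP8 TFQA. Both water groups spread over about a doubling, with SDs of 0.53 and 0.57, whereas the TFQA arrays had an SD of 0.10 and lay within their range. The difference was -0.21 in SAMP8 TFQA vs. SAMP8 water (95% interval -0.85 to 0.43, adjusted p = 0.902 in limma), 0.24 in SAMP8 water vs. SAMR1 water (adjusted p = 0.970) and 0.03 in SAMP8 TFQA vs. SAMR1 water (adjusted p = 0.990). The interval allows a fold between 0.556 and 1.35 after TFQA. Single arrays moved these values widely. In SAMP8 TFQA vs. SAMP8 water the difference was -0.53 without SAMP8 water replicate 1 and turned to 0.015 without SAMP8 water replicate 3. In SAMP8 water vs. SAMR1 water it was 0.56 without SAMP8 water replicate 1, 0.53 without SAMR1 water replicate 1 and 0.02 without SAMR1 water replicate 2 or SAMP8 water replicate 3. In SAMP8 TFQA vs. SAMR1 water it ran from -0.19 without SAMR1 water replicate 2 to 0.33 without SAMR1 water replicate 1, and none of these was past the threshold.

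Tnfaip3 (A20, chromosome 10, 19000910 to 19015410), the other inhibitor with the decamer in the promoter shown, was the gene of the 9 with the largest difference. It read 6.53, 6.31 and 6.67 in SAMR1 water, 6.19, 6.08 and 6.04 in SAMP8 water and 6.06, 5.66 and 5.53 in SAMP8 TFQA. SAMR1 water lay above every SAMP8 array, and 2 of the 3 TFQA arrays lay below all SAMP8 water arrays. SAMP8 water vs. SAMR1 water gave -0.40 (standard error 0.17), a fold of 0.758 with a 95% interval of 0.582 to 0.987 (unadjusted p = 0.0411, adjusted p = 0.802 in limma). SAMP8 TFQA vs. SAMP8 water gave -0.35 (unadjusted p = 0.0662, adjusted p = 0.714 in limma), not past the threshold. SAMP8 TFQA vs. SAMR1 water gave -0.75 (standard error 0.17), a fold of 0.593 with a 95% interval of 0.456 to 0.772 (unadjusted p = 0.00102, adjusted p = 0.117 in limma). By p it ranked 193 of all transcripts in that comparison.

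The calls of Tnfaip3 differed in how far they depended on single arrays. In SAMP8 TFQA vs. SAMR1 water the difference was -0.91 to -0.64 over the 18 alternatives, each past the study's threshold, with adjusted p between 0.0563 and 0.415 in limma. In SAMP8 water vs. SAMR1 water the call was lost without SAMR1 water replicate 1 (-0.39), SAMR1 water replicate 3 (-0.32), SAMP8 water replicate 1 (-0.44), SAMP8 water replicate 2 (-0.39) or SAMP8 water replicate 3 (-0.37), with adjusted p of 0.883 to 0.988 in limma. The difference in SAMP8 TFQA vs. SAMP8 water became past the threshold without SAMP8 TFQA replicate 1 (-0.51, adjusted p = 0.599 in limma), the array with the highest Tnfaip3 and the lowest Il1b of its group. Meningeal markers also separated the strains, with scores of -0.71 to -0.34 in SAMR1 water and -0.26 to 0.67 in the SAMP8 arrays, and their part was not tested.

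Around these genes, 10 lists of the pathway named 155 genes, of which 145 were measured and 65 lay among the 40% of transcripts with the lowest means. None passed the adjusted test in limma. In SAMP8 water vs. SAMR1 water 7 of 145 (4.83%) were past the study's threshold, 4 higher and 3 lower, with a median log2 difference of 0.03 against -0.01 for all transcripts. After TFQA, against SAMP8 water, they were 12 of 145 (8.28%), 5 higher and 7 lower, with medians of -0.01 and 0.01. In SAMP8 TFQA vs. SAMR1 water they were 9 of 145 (6.21%), 4 higher and 5 lower, with medians of 0.01 and -0.01. Each share was near that of all transcripts.

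**Figure D4:**
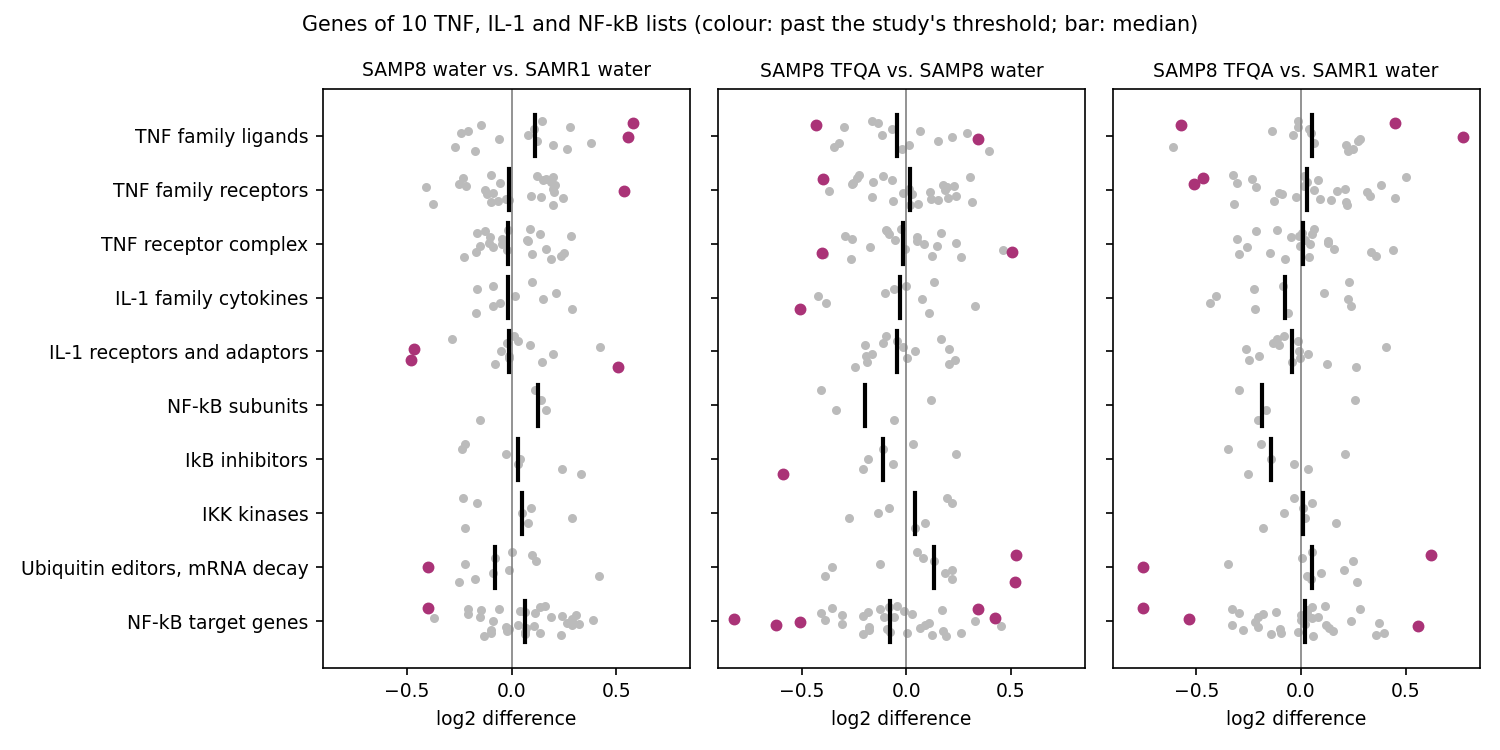
Log2 difference (horizontal axis) of the measured genes of 10 pathway lists (vertical axis), 1 panel per comparison and 1 point per gene, with a gene of several lists drawn in each. Coloured points are past the study's threshold and black bars are list medians, which lie between -0.20 and 0.13.

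In SAMP8 water vs. SAMR1 water, the genes past the threshold beside Tnfaip3 were ligands, receptors and IL-1 signaling genes. Tnfsf8, the CD30 ligand, read 3.41, 3.53 and 3.18 in SAMR1 water and 4.03, 3.89 and 3.94 in SAMP8 water, a difference of 0.58 (adjusted p = 0.306 in limma). Casp1, the protease that matures interleukin-1 beta, read 7.12, 6.79 and 6.52 against 7.15, 7.42 and 7.38, a difference of 0.51. Both were higher in every SAMP8 water array than in any SAMR1 water array. Tnfsf10 (TRAIL) and Tnfrsf13c (the BAFF receptor) differed by 0.56 and 0.54. Tnfsf8 and Tnfsf10 were among the 40% of transcripts with the lowest means, and so was Il18rap below. For list genes other than the 9, dependence on single arrays is not given. Irak2, a kinase below the IL-1 receptor, differed by -0.47 and Il18rap, an interleukin-18 receptor subunit, by -0.48. The IL-1 receptor and adaptor list thus held 1 higher and 2 lower genes of 15 (20% in all). Of all transcripts, 3.4% were higher and 2.7% lower (6.09% in all). Of the other lists, TNF family ligands held 2 of 16 (12.5%) and ubiquitin editors and mRNA decay factors 1 of 11 (9.09%). TNF family receptors held 1 of 27 (3.7%) and NF-kB target genes 1 of 35 (2.86%). The TNF receptor complex held 0 of 22, IL-1 family cytokines 0 of 10 and IkB inhibitors 0 of 7.

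After TFQA, against SAMP8 water, the NF-kB target list held 5 of 35 genes past the threshold, 2 higher and 3 lower, against 3.36% higher and 3.76% lower among all transcripts. The higher genes were Tnf and Lcn2, an iron-binding acute phase protein (0.42, adjusted p = 0.689 in limma), which is named as the remaining gene of the count after its value was seen. The lower genes were Il1a, Junb and Gadd45b. Junb, an AP-1 subunit, read 9.32, 9.17 and 8.62 in SAMP8 water and 7.94, 8.70 and 8.01 in SAMP8 TFQA, a difference of -0.82 (adjusted p = 0.561 in limma). Gadd45b, a stress response gene, read 8.00, 8.11 and 8.06 against 6.80, 7.80 and 7.71, a difference of -0.62. Bcl3, an atypical IkB protein, differed by -0.59. Zc3h12a (Regnase-1), an enzyme that degrades cytokine RNA, read 5.31, 4.91 and 5.04 in SAMP8 water and 5.56, 5.56 and 5.71 in SAMP8 TFQA, a difference of 0.52 (adjusted p = 0.561 in limma). Cyld, a deubiquitinase, differed by 0.52, so that 2 of the 11 ubiquitin editors and mRNA decay factors were higher past the threshold and 0 lower, against the same 3.36% and 3.76% of all transcripts. Tnfaip3, also on that list, differed by -0.35. Among death receptor genes, the adaptor Fadd differed by 0.50, the caspase-8 inhibitor Cflar by -0.40 and the receptor Tnfrsf25 by -0.40. Bcl3, Zc3h12a and Fadd were among the 40% of transcripts with the lowest means. Of the other lists, IkB inhibitors held 1 of 7 (14.3%) and TNF family ligands 2 of 16 (12.5%). IL-1 family cytokines held 1 of 10 (10%), the TNF receptor complex 2 of 22 (9.09%) and TNF family receptors 1 of 27 (3.7%). IL-1 receptors and adaptors held 0 of 15.

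In SAMP8 TFQA vs. SAMR1 water, groups that differ in both strain and treatment, 7 list genes beside Tnfaip3 and Tnfrsf1b were past the threshold. Zc3h12a differed by 0.62 (adjusted p = 0.193 in limma), Tnfsf10 by 0.77 (adjusted p = 0.399) and Tnfsf8 by 0.45. Of the 7, only Tnfsf10 and Tnfsf8 were also past the threshold in SAMP8 water vs. SAMR1 water, by 0.56 and 0.58. The chemokine gene Cxcl10 read 3.86, 3.79 and 3.70 in SAMR1 water and 4.36, 3.89 and 4.77 in SAMP8 TFQA, a difference of 0.56 (adjusted p = 0.570 in limma). Tnfsf4, the OX40 ligand, Junb and Tnfrsf26 were lower, by differences of -0.57, -0.53 and -0.47. Zc3h12a, Tnfsf10, Tnfsf8, Cxcl10 and Tnfsf4 were among the 40% of transcripts with the lowest means. Of the 3 TNF family ligands past the threshold, 2 were higher and 1 lower, of 16 measured, against 4.07% and 3.99% of all transcripts. Of the other lists, ubiquitin editors and mRNA decay factors held 2 of 11 past the threshold (18.2%). NF-kB target genes held 3 of 35 (8.57%) and TNF family receptors 2 of 27 (7.41%). The TNF receptor complex held 0 of 22 and IL-1 receptors and adaptors 0 of 15. IL-1 family cytokines held 0 of 10 and IkB inhibitors 0 of 7. The IkB kinase list held 0 of 7 past the threshold in each comparison, and the list of NF-kB subunits 0 of 4.

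The promoters of the lists were searched for the same motif. The decamer stood in a promoter of 2581 of the 27025 genes of the table (9.55%). It stood in 13 of 27 NF-kB target genes (48.1%), 5 of 9 ubiquitin editors and mRNA decay factors (55.6%), 4 of 6 IkB inhibitors (66.7%) and 2 of 3 NF-kB subunits (66.7%). The shares were 3 of 17 for IL-1 receptors and adaptors (17.6%), 3 of 23 for TNF family receptors (13%), 2 of 21 for the TNF receptor complex (9.52%) and 1 of 13 for TNF family ligands (7.69%). No match was in the 6 IkB kinase genes or the 9 IL-1 family cytokines. These are counts of genes with an entry, some with several start sites, and some genes are on several lists.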

How the data were processed

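RNA from 3 arrays per group was measured. The authors labelled it with GeneChip WT PLUS reagents, scanned Clariom S Mouse arrays and normalized them with SST-RMA. The deposited values are log2 signals, 1 per transcript and array, after background correction and summary of probes. The methods state SST-RMA and the labels RMA. RMA compresses differences, most in dim transcripts, which the signal space transformation of SST-RMA is meant to offset. Gene symbols came from the platform annotation (19572 of 22206 transcripts had 1 and 2634 none), and for each gene the transcript with the highest mean was used. Array medians were 6.76 to 6.81, and the median standard error of a log2 difference was 0.190. The number of arrays limits the precision.

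All 9 arrays entered 1 fit of group means with limma 3.58.1 (lmFit, eBayes) in R 4.3.3, without a filter on dim transcripts, and 3 contrasts were tested with Benjamini-Hochberg adjustment over all transcripts. Exact permutation tests used 3 arrays against 3. The members, gene lists and tests were chosen with earlier results of these data known. Beside the members, the 8 list genes with the smallest p among those past the study's threshold in each comparison, any list gene at an adjusted p under 0.05 (there was none), the 3 genes most like Tnf and Gapdh were named. Alternatives were a fit of 2 groups, eBayes with its trend and robust options, a replicate block, one-way ANOVA, quantile normalization, median centring, leaving out the 40% dimmest transcripts, array weights, leaving out each array, and, chosen after seeing the data, values relative to Gapdh. The qPCR values of the study were not analysed here.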

Additional observations from a re-analysis of the deposited data

How the results depend on the processing

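Of 474 alternative values of the 27 gene differences, 431 kept direction and side of the study's threshold, 23 lost it, 6 gained it, 0 called values reversed, and 14 values that were not called turned direction. Members past the threshold in SAMP8 water vs. SAMR1 water were 0 with trend and robust settings or relative to Gapdh, and 0 to 1 with an array left out. After TFQA, against SAMP8 water, they were 1 in the fit of 2 groups, with trend and robust settings or relative to Gapdh, 0 without the 40% dimmest transcripts (which hold Tnf, Il1a, Tnfrsf1a and Tnfrsf1b) and 0 to 3 with an array left out. Against SAMR1 water they were 1 without the dimmest transcripts and 1 to 3 with an array left out. Tnf in SAMP8 TFQA vs. SAMP8 water was 0.34 in the fit of 2 groups (adjusted p = 0.755 in limma) and with trend and robust settings (adjusted p = 0.679), 0.33 with array weights (adjusted p = 0.697), 0.36 relative to Gapdh and 0.27 to 0.39 with an array left out, all positive. One-way ANOVA put Tnf past the threshold in SAMP8 TFQA vs. SAMR1 water, at the same 0.28 (adjusted p = 0.660). List genes past the threshold were 4, 6 and 5 in the 3 comparisons without the dimmest transcripts, where fewer genes were tested, and 4 in the first relative to Gapdh. Transcripts at an adjusted p under 0.05 were 40 and 53 by one-way ANOVA, against 113 and 128 by limma, for the SAMP8 water arrays and the TFQA arrays against SAMR1 water. With the replicate block, the members past the threshold were 1, 2 and 2 as without it, and the list genes 7, 12 and 10. Arrays with the same number correlated in their deviations by 6.15e-05 to 0.153. Only replicate 2 of the 2 water groups (0.153) exceeded 0.1, and the next value was 0.0938, so that the numbers were not taken as pairs. Of the 9 arrays, 5 correlated best with an array of their own number. The causes of these shifts were not tested. Another transcript per gene could not be tried, since each member had 1. Tnf is limited by its low signal, for which no detection call was at hand, and by its dependence on single arrays.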
